A study of Drosophila melanogaster with 3 samples.

Results

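The regions described are the 479 Deformed-GFP peaks on 2L, the left arm of chromosome 2 of Drosophila melanogaster. They are all rows of the deposited peak list whose sequence name is exactly 2L, and they make up 15.2% of the 3159 peaks in the list. The peaks come from chromatin immunoprecipitation followed by sequencing (ChIP-seq) with an antibody against GFP, named NWG-GFP in the labels, in flies carrying a GFP-tagged transgenic form of Deformed (Dfd). The 3 samples are 1 ChIP sample, whose title covers replicates 1 and 2, and 2 samples of input chromatin named GFP_INPUT_1 and GFP_INPUT_2. ChIP and input share the fly stock, given as y w, VK37, and a stage labelled 10T-W3L with no further explanation. The growth protocol speaks of collected embryos. The sources used here do not say what drives expression of the tagged protein. The ChIP sample is represented by 1 peak list, so no value below has a replicate error, and signal in the input was not analysed here.

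Deformed is a Hox protein, a transcription factor with a homeodomain, that gives segments of the head their identity. Its native gene lies in the Antennapedia complex on 3R, not on 2L. Where the tagged transgene lies was not examined here. Hox proteins recognise short AT-rich sequences, often together with the cofactors Extradenticle and Homothorax, and act through enhancers that can lie far from the genes they control. In such an experiment a peak is a stretch where sequenced fragments pile up above what the peak caller takes as background, and a peak call alone does not establish that the protein acts there. On 2L the coordinates run from the telomere, the distal end, to the centromere, the proximal end. Positions are on BDGP5 (Release 5), counted from 1, and no genes are given for the peaks, because the gene table at hand belongs to another release.

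The 2L peaks were spread over nearly the whole numbered arm but were thin on the ground. The most distal began at position 134851 and the most proximal ended at 22959715, a span of 22.8 Mb. Together they covered 355 kb, or 1.56% of the span, against 1.88% on 3L, 1.80% on 3R and 2.47% on X. The density was 21.0 peaks per Mb on 2L, which is 1 peak per 47.7 kb. It was 24.6 per Mb on 3L (572 peaks), 23.4 per Mb on 3R (652 peaks) and 34.7 per Mb on X (773 peaks). The 2L density was 0.604 times that of X (95% interval 0.538 to 0.678, exact test, adjusted p = 3.5e-17). Against 3L the ratio was 0.855 (interval 0.755 to 0.967) with an unadjusted exact p of 0.0114 and an adjusted p of 0.0798, which did not pass 0.05. Against 3R it was 0.897 (interval 0.796 to 1.01, exact test, adjusted p = 0.219), which did not pass either. These are exact conditional tests of 2 Poisson rates, two-sided, adjusted by Benjamini-Hochberg over the 21 tests of 2L against the other arms. They count each peak as independent, although peaks lie in groups. The intervals therefore cover counting error only and are too narrow. The p-values are too small for the same reason, also under the alternative settings that follow. With complete 1 Mb bins in place of the span, the ratio to 3L was 0.830 and passed (exact test, adjusted p = 0.0277). Among the 10% of peaks with the highest scores, the ratio to X was 0.641 and did not pass (exact test, adjusted p = 0.171).

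The arm was fuller towards both ends than in its middle and was sparsest in its proximal interior. Cut into 5 equal parts from distal to proximal, 2L held 120, 87, 91, 68 and 113 peaks, or 26.3, 19.1, 19.9, 14.9 and 24.8 per Mb. The parts at the telomeric and centromeric ends therefore held the most peaks, and the fourth part, from 13829770 to 18394742, held the fewest. On 3L, by contrast, the middle part was the fullest, with 136 peaks, against 108 in the most distal and 107 in the most proximal part. On 3R the middle part was also the fullest, with 147 peaks, and on X the second part from the telomere was, with 185. Taken over the distal 50% of the span alone, 2L had 53.4% of its peaks (256 of 479, exact 95% interval 48.9 to 58.0%), against 55.2% on 3L, 50.3% on 3R and 52.8% on X. None of these differences passed (Fisher's exact test, two-sided, adjusted p from 0.585 to 0.904).

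In fixed 1 Mb bins counted from coordinate 1, the 21 complete bins of 2L held between 7 and 30 peaks, with a median of 22 and a mean of 20.6 ± 6.0 (SD over bins). The bins ran, from distal to proximal, at 28, 22, 30, 23, 22, 21 and 23 peaks up to position 8000000. A dip to 11 peaks followed between 8000001 and 9000000. The next bins held 21, 16, 21, 23, 17 and 24 peaks. Then came the emptiest bin of the arm, with 7 peaks from 15000001 to 16000000, followed by one with 20 and by one with 8 from 17000001 to 18000000. The last complete bins, from 18000001 onwards, held 20, 22, 27 and 26 peaks, so the counts were again at the level of the distal end. The 3 fullest bins were those starting at 3000001 (30 peaks), 1000001 (28 peaks) and 20000001 (27 peaks). The incomplete stretches outside these bins held 22 peaks at the distal end, up to position 1000000, and 25 peaks from 22000001 to the last peak.

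No 2L bin reached the counts of the fullest bins elsewhere. The fullest 1 Mb bin held 30 peaks on 2L, against 46 on 3L, 39 on 3R and 53 on X, and the emptiest held 7 on 2L, against 15, 10 and 23. Relative to its mean, the spread over bins was 29.1% on 2L, against 30.5% on 3L, 32.4% on 3R and 24.7% on X. This percentage rises as counts fall. In these bins the variance of the counts over their mean was 1.75 on 2L, against 2.31 on 3L, 2.45 on 3R and 2.20 on X. The lowest bin of X, with 23 peaks, thus stood above the median bin of 2L. Bins of 1 list are not replicates, and these values are given as a description with no test.

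**Figure D1:**
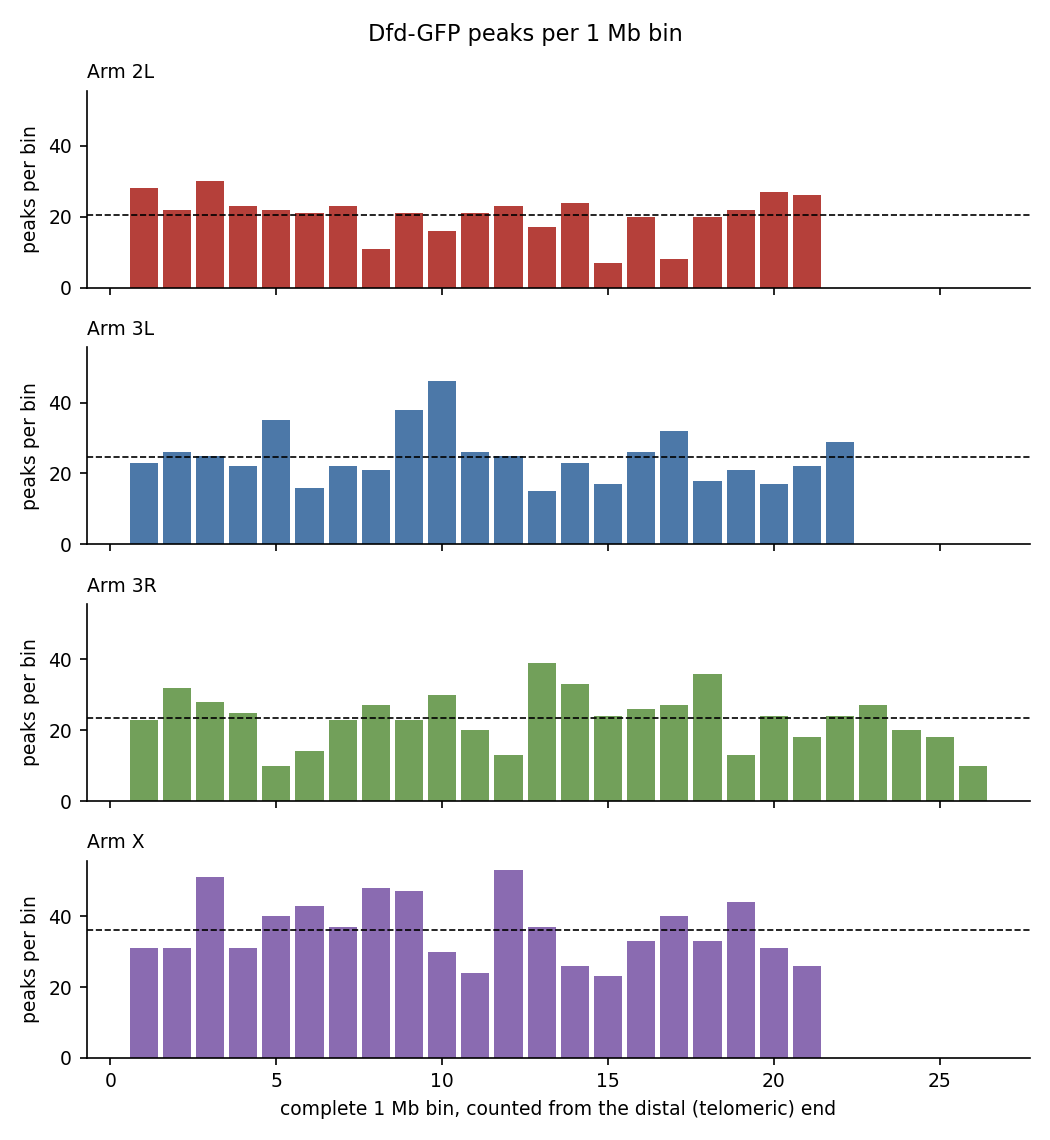
Peaks per complete 1 Mb bin (bars) on 2L, 3L, 3R and X, with bins numbered from the telomeric end and the mean of each arm as a dashed line. On 2L the bars run from 7 to 30, with low bins of 7 and 8 peaks on either side of one with 20.

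At 100 kb the same arm broke up into short crowded bins and many empty ones. Of 227 complete bins, 49 held no peak centre, 58 held 1, 45 held 2, 31 held 3 and 19 held 4. The other 25 bins held 5 or more, and these contained 157 peaks, or 33.1% of the peaks in complete bins. On the other arms, bins of 5 or more peaks held 43.2% of the binned peaks on 3L, 39.7% on 3R and 53.2% on X. Such shares rise with the mean count per bin, which was 2.09 on 2L, 2.42 on 3L, 2.33 on 3R and 3.47 on X. The variance of these counts over their mean was 1.85 on 2L, against 1.79 on 3L, 1.85 on 3R and 1.69 on X. Empty bins made up 21.6% of the bins on 2L (exact 95% interval 16.4 to 27.5%), against 17.7% on 3L, 17.3% on 3R and 10.8% on X. The difference from X was 10.8 percentage points and passed (Fisher's exact test, adjusted p = 0.0221). The differences from 3L and 3R, of 3.91 and 4.26 points, did not (Fisher's exact test, adjusted p = 0.607 and 0.585). An empty bin is more likely where density is lower, so this result and the lower density of 2L than of X are not separate findings.

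The 5 fullest 100 kb bins of 2L lay far apart. The bins from 1600001 to 1700000 and from 7900001 to 8000000 held 10 peaks each. Those from 12500001 to 12600000, from 14100001 to 14200000 and from 21600001 to 21700000 held 8 peaks each. Their peaks were mostly of ordinary strength, with median scores of 80.1, 63.0, 81.7, 93.5 and 76.3 in the same order, close to or below the 2L median of 83.8 except in the bin at 14100001. The score is the authors' own value for each peak from the peak caller MACS, of unstated scale, and is used here only within this list. The highest scores in these 5 bins were 209.59, 291.1, 141.81, 468.66 and 132.35. The fullest bins thus included both kinds, with and without a strong peak.

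**Figure D2:**
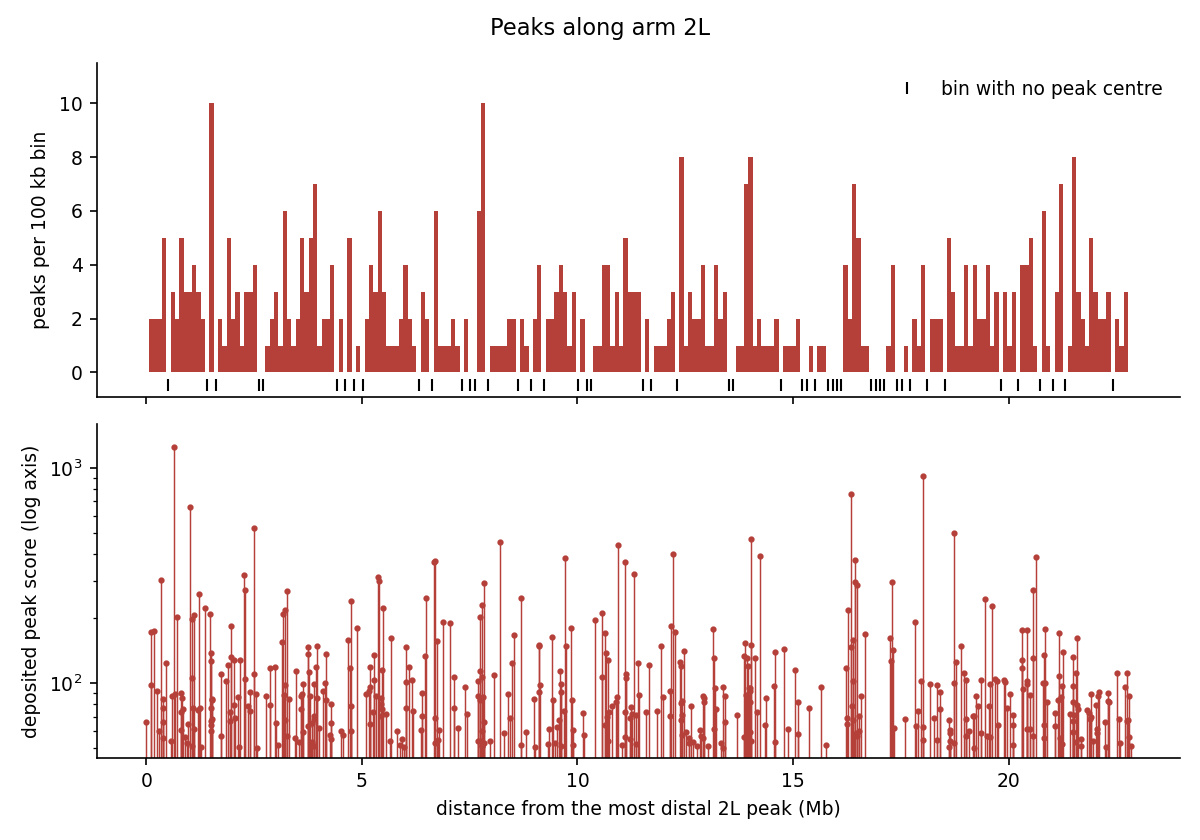
Peaks along 2L by distance from the most distal peak in Mb: the upper panel gives peaks per fixed 100 kb bin, with ticks under the 49 empty bins, and the lower panel the deposited score of each of the 479 peaks on a log axis. Crowded bins of 8 to 10 peaks are scattered along the arm, and 14 of the 49 empty bins lie in the 3 Mb from 15000001 to 18000000.

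Empty stretches were long on 2L. The 478 gaps between the end of a peak and the start of the next had a median of 25.4 kb (quartiles 7.25 and 63.2 kb), against 21.3 kb on 3L, 22.3 kb on 3R and 15.4 kb on X. At the short end the arms were close, with 10% of gaps below 1.68 kb on 2L, 1.69 kb on 3L, 2.15 kb on 3R and 1.62 kb on X. At the long end they were further apart, with 10% of gaps above 122 kb on 2L, 99.6 kb on 3L, 111 kb on 3R and 66.9 kb on X. Gaps of 100 kb or more took up 48.1% of the span of 2L, against 41.0% on 3L, 43.0% on 3R and 24.9% on X. Gaps of 200 kb or more numbered 15 on 2L and took up 18.2% of its span, against 13 gaps and 15.1% on 3L, 13 gaps and 11.9% on 3R, and 7 gaps and 8.11% on X. The share of 2L was the highest of the 4 arms at limits of 100, 150, 200 and 250 kb, but not at 300 kb, where it was 4.50% against 5.06% on 3L. The mean gap was 47.0 kb on 2L, 40.0 kb on 3L, 42.0 kb on 3R and 28.1 kb on X. Gaps are longer where density is lower, so these lengths and shares are not separate from the lower density of 2L. No test was made of these shares, and gaps in the assembly were not known.

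**Figure D3:**
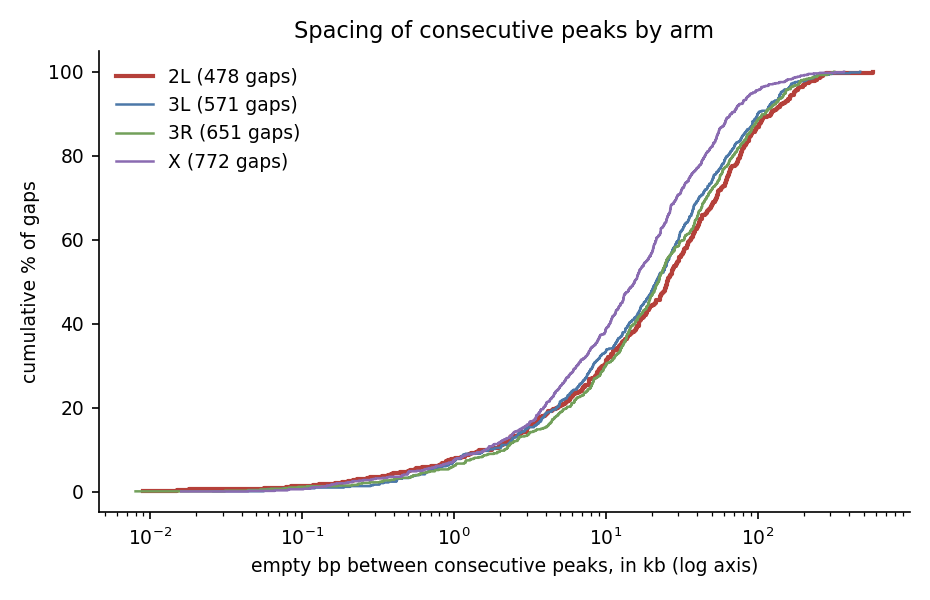
Cumulative percent of the gaps between consecutive peaks, by gap length in kb on a log axis, for 2L (thick line, 478 gaps), 3L, 3R and X. The curves lie together below about 2 kb, and at 20, 50 and 100 kb the 2L curve is the lowest, at 44.4, 68.2 and 86.8% of its gaps.

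The 5 longest stretches without a peak on 2L were 571, 456, 281, 268 and 268 kb long. In the same order they ran from 16809266 to 17380620, from 15894486 to 16350852, from 13554164 to 13835148, from 15510291 to 15778296 and from 7568986 to 7836813. The longest empty stretch of 3L was 471 kb, that of 3R 318 kb and that of X 369 kb. The peaks beside the longest 2L stretch were not weak, with scores of 169.75 on the distal and 162.51 on the proximal side. Those beside the second longest scored 51.46 and 117.44, and the peaks at the ends of the other 3 scored from 54.05 to 96.31.

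Of the 15 gaps of 200 kb or more, 6 lay wholly between 15000001 and 18000000, the 2 longest of the arm among them, and the other 9 were elsewhere. The 6 took up 2041 kb, or 68.0% of the 3 Mb. This window was chosen after the bin counts were seen. It held 35 peaks, or 11.7 per Mb, and 14 of its 30 bins of 100 kb were empty. The rest of 2L held 444 peaks over 19.8 Mb, or 22.4 per Mb. The whole of 3L, 3R and X, with no sparse window taken out, held 24.6, 23.4 and 34.7 per Mb. No test was made of the rest of 2L against them. The median score of the peaks within the window was 87.6, against 83.8 over the whole arm, and their median width was 675 bp, against 685 bp.

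Between the 2 longest empty stretches stood 20 peaks, from 16350853 to 16809265, a span of 458 kb. That is 43.6 per Mb, but the span is cut at the edges of the gaps, which raises the value, and over the 1486 kb that include both gaps it was 13.5 per Mb. Of the 20, 14 had no other peak within a gap of 5 kb, and the median gap among them was 18.3 kb. The lowest of their scores was 56.61, the median 95.1 and the highest 760.37, and 5 of the 20 were in the highest 10% of scores of the 4 arms. Their widths ran from 397 to 1487 bp. The third highest score of 2L was among them, at 16471930 to 16472754.

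On the same part of the arm, 2 peaks stood alone, each with more than 200 kb of empty sequence on both sides. The peak at 15509629 to 15510290 (662 bp, score 76.83) lay between gaps of 255 and 268 kb. The peak at 17725595 to 17726233 (639 bp, score 67.97) lay between gaps of 244 and 246 kb. There were 0 such peaks on 3L, 0 on 3R and 0 on X, a difference of 2 peaks that is too small to test. Both peaks were slightly narrower and lower in score than the median 2L peak.

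Close neighbours were nevertheless common on 2L. Of the 479 peaks, 166 (34.7%, exact 95% interval 30.4 to 39.1%) had a neighbour no more than 5 kb away between centres, against 34.4% on 3L, 28.4% on 3R and 38.0% on X. The share of 2L lay 0.215 percentage points above that of 3L, a direction that turned under each of the 4 alternative settings tried, and 6.28 points above that of 3R. Neither difference passed (Fisher's exact test, adjusted p = 0.948 and 0.137), nor did the difference of -3.38 points from X (adjusted p = 0.585). Within 10 kb the share was 48.4% on 2L and 59.9% on X, a difference of -11.5 points that passed (Fisher's exact test, adjusted p = 9.1e-04). Such shares rise with density, so they do not rank the arms by how strongly their peaks group. The tests and intervals also count each peak as independent, although close peaks come at least in pairs. The intervals are therefore too narrow and the p-values too small.

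When peaks with gaps of at most 5 kb were put into 1 run, 304 of the 2L peaks (63.5%) stood single, 118 formed 59 pairs, and 57 lay in 18 groups of 3 or more. The groups were small, with 16 of 3 peaks, 1 of 4 and 1 of 5. The share of peaks in groups of 3 or more was 11.9% on 2L (interval 9.14 to 15.1%), against 12.4% on 3L, 12.6% on 3R and 16.3% on X. None of these differences passed, the largest being -4.40 points from X (Fisher's exact test, unadjusted p = 0.0326, adjusted p = 0.137). The members of a group were counted as independent here too, so the interval is too narrow and the p-values too small. The largest run held 5 peaks on 2L and 5 on 3L, against 7 on 3R and 9 on X. Groups of 4 or more numbered 2 on 2L, against 4 on 3L, 8 on 3R and 12 on X. These arms held 479, 572, 652 and 773 peaks in the same order. The number and size of groups also rise with density, so these counts do not rank the arms by grouping.

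**Figure D4:**
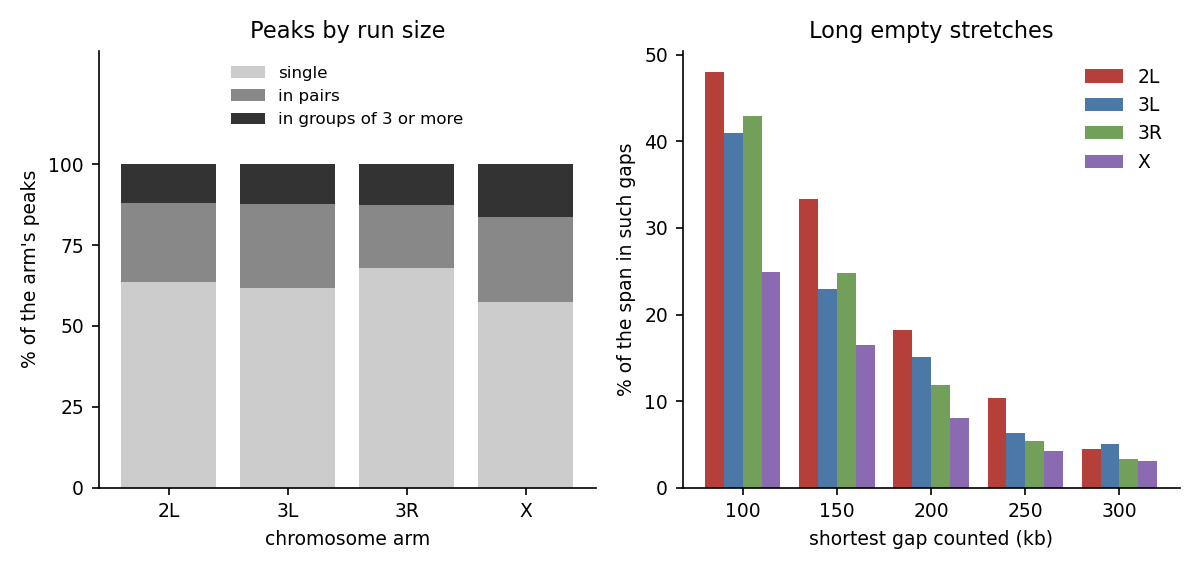
Left, percent of the peaks of each arm that were single, in pairs or in groups of 3 or more, with gaps of at most 5 kb within a run. Right, percent of the span of each arm that lay in gaps at or above the length on the axis. On 2L, 63.5% of peaks were single, and gaps of 200 kb or more took up 18.2% of the span.

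The largest group of 2L lay near the centromeric end, from 21613592 to 21622748. Its 5 peaks scored 97.23, 66.56, 59.65, 81.44 and 132.35 and were 539 to 850 bp wide. The 4 proximal ones followed each other closely from 21619024 to 21622748, with the most distal standing nearly 5 kb apart. The group of 4 lay near the telomeric end, from 1624997 to 1629910, and its peaks scored 127.41, 138.41, 76.99 and 66.47. Neither of these 2 groups held a peak above 138.41 in score, where the upper quartile of all 2L scores was 119.

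Among the 3 tightest groups of 3, the highest score was 118.97. The group from 7836814 to 7839261 spanned 2448 bp and scored 54.05, 101.92 and 87.35, and it began directly at the end of the empty stretch of 268 kb that starts at 7568986. The group from 5320736 to 5323930 spanned 3195 bp and scored 96.29, 118.97 and 64.88. The group from 19137443 to 19142037 spanned 4595 bp and scored 68.53, 56.9 and 103.68. Over all 16 groups of 3, the span had a median of 6.45 kb (range 2.45 to 11.3 kb). A peak with a score of 200 or more was present in 6 of the 16, the highest being 500.6. Of all 479 2L peaks, 46 (9.60%) scored 200 or more, and no difference from this was tested. By bin, 3 groups of 3 or more centred between 7000001 and 8000000, which is the most in any 1 Mb bin of 2L, and 0 centred between 15000001 and 18000000.

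In the 59 pairs of 2L the empty stretch between the partners had a median of 1465 bp (range 9 to 4905 bp) and was under 1 kb in 25. In 29 pairs both peaks scored under 100. Over all 2L peaks only 165 of 479 (34.4%) scored 100 or more, so pairs of this kind are common in any case. In 7 pairs 1 partner was in the highest 10% of scores of the 4 arms, and in 0 of the 59 were both. With 7 such peaks among 118 paired peaks (5.93%), few pairs of that kind could occur, and nothing is read from the 0. In the pair with the highest score, the peak at 18140276 to 18141257 scored 923.52 and its partner at 18137545 to 18138165 scored 62.28. Whether the caller had split some of these from 1 region of signal was not tested. Joining peaks under 1 kb apart turned the 479 peaks into 441 regions, of which 34 held more than 1 peak and none more than 4.

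Most 2L peaks were of similar width. The median was 685 bp (quartiles 618 and 807 bp, range 371 to 1978 bp), against 703 bp on 3L, 706 bp on 3R and 665 bp on X. The widest 2L peak, at 1978 bp, was narrower than the widest on 3L (4109 bp), 3R (2461 bp) and X (2308 bp). Peaks of 1000 bp or more made up 10.2% on 2L (49 of 479, interval 7.66 to 13.3%), against 10.7% on 3L, 12.3% on 3R and 6.99% on X. None of these differences passed after adjustment, the 3.24 points above X having an unadjusted p of 0.0448 and an adjusted p of 0.157 by Fisher's exact test.

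Along 2L the median width was 695 bp in the most distal of 5 equal parts, then 705, 704 and 685 bp, and 662 bp in the most proximal. Peaks of 1000 bp or more numbered 10, 10, 15, 9 and 5 in the same order. The centromeric part thus held 5 wide peaks among 113, against 44 among the 366 of the other 4 parts. These values describe 1 list and were not tested.

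The 5 widest peaks of 2L all lay in runs, and 4 of them had another peak within 1 kb. The widest, from 12536155 to 12538132 (1978 bp, score 119.69), was 333 bp from a second wide peak of 1452 bp. The peak from 9241696 to 9243624 (1929 bp, score 149.41) was 366 bp from its neighbour. The peak from 239228 to 240889 (1662 bp, score 98.59) was only 9 bp from one of 1166 bp with the higher score of 172.47. The peak from 8827351 to 8829000 (1650 bp, score 250.19) was 85 bp from its neighbour, and that from 4881321 to 4882897 (1577 bp, score 240.25) lay 4404 bp away from the nearest peak. Peaks of 1000 bp or more made up 7.89% of single peaks, 12.7% of paired peaks and 17.5% of peaks in groups of 3 or more on 2L. These are 24, 15 and 10 peaks, and the median widths were 691, 667 and 695 bp. The share also rose on 3L, from 9.92% of single peaks to 12.7% of grouped peaks. It did not rise steadily on 3R (12.0, 13.3 and 12.2%) or on X (5.87, 4.90 and 14.3%). Differences among these shares were not tested. The 3 narrowest, at 22390524 to 22390894 (371 bp), 1336661 to 1337055 (395 bp) and 16376648 to 16377044 (397 bp), had low scores of 50.44, 74.73 and 69.13.

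**Figure D5:**
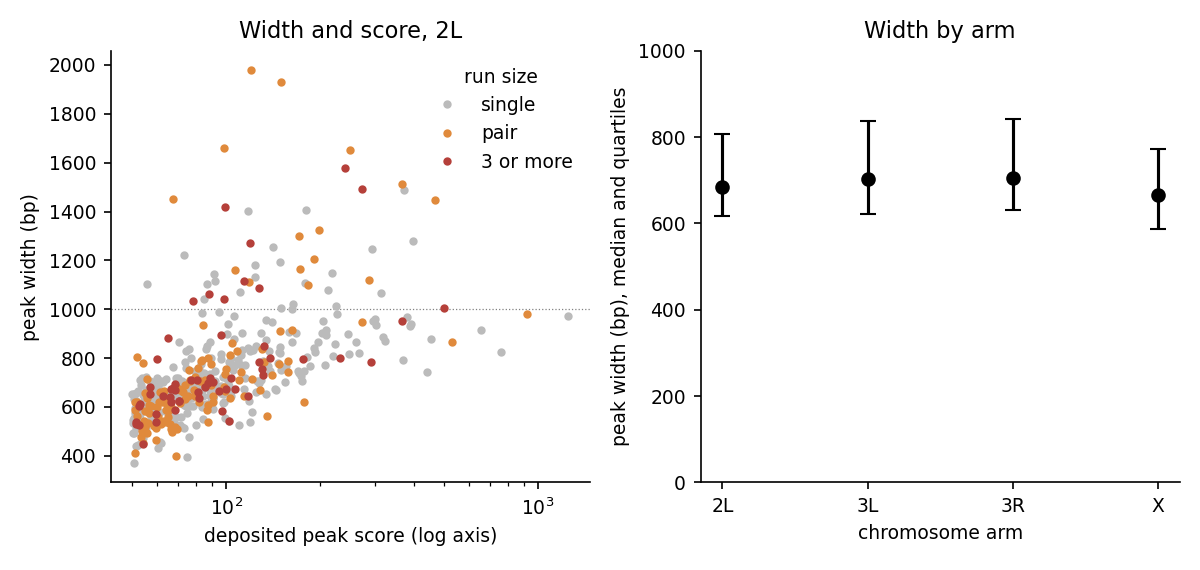
Left, width in bp against deposited score on a log axis for the 479 peaks of 2L, coloured by whether a peak is single, in a pair or in a group of 3 or more, with a dotted line at 1000 bp. Right, median width with quartiles for the 4 arms. The 4 widest peaks are in pairs, and the medians of the arms lie between 665 and 706 bp.

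Higher scoring 2L peaks were wider. Spearman's rho between score and width was 0.72 over the 479 peaks, against 0.72 on 3L, 0.71 on 3R and 0.77 on X, given as a description because the caller produced both values. The 120 peaks of 2L with the lowest scores (50.04 to 62.88) had a median width of 602 bp. The next 119 peaks by score had a median width of 655 bp, and the 120 after those 710 bp. In the 120 highest (119.42 to 1249.65) the median width was 866 bp. The share with another centre within 5 kb was 35.0, 40.3, 32.5 and 30.8% in the same order.

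The 10 highest scoring peaks were spread over much of the arm. The highest scored 1249.65 and lay at 778882 to 779853, 27.0 kb from the nearest other peak. The second, at 18140276 to 18141257, scored 923.52 and had a peak 2.91 kb away. The third, at 16471930 to 16472754, scored 760.37, and the fourth, at 1152494 to 1153409, scored 656.24. After these came peaks at 2623738 to 2624602 (score 529.52), 18860544 to 18861548 (500.6) and 14157745 to 14159191 (468.66). The last 3 of the 10 were at 8333330 to 8334207 (454.93), 11081127 to 11081869 (440.65) and 12351804 to 12353083 (397.25). The next score was 392.28. Of these 10 peaks, 6 were single by the 5 kb rule, which is near the 63.5% of all 2L peaks, and that at 8333330 had the longest distance to the nearest centre, 96.3 kb. Their widths ran from 743 to 1447 bp with a median of 944 bp, so none of them was among the 5 widest.

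The share of strong peaks on 2L was not distinguishable from that of the other arms. The score that marked the highest 10% of the 4 arms was 199, and 46 2L peaks reached it (9.60%, interval 7.12 to 12.6%), against 10.8% on 3L, 10.7% on 3R and 9.06% on X. These differences of -1.24, -1.13 and 0.548 percentage points did not pass (Fisher's exact test, adjusted p from 0.806 to 0.904). For the upper 50% of scores the differences from 3L and 3R turned, to 1.28 and 4.56 points, and did not pass either. At the top of the scale 2L had 6 peaks of 500 or more (1.25%), against 14 on 3L (2.45%), 12 on 3R (1.84%) and 14 on X (1.81%). It had 1 of 1000 or more (0.209%), against 5 (0.874%), 4 (0.613%) and 1 (0.129%). These small counts were not tested. The arms were close in the middle of the scale, with median scores of 83.8 on 2L, 82.8 on 3L, 79.5 on 3R and 80.3 on X.

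The 46 strong 2L peaks were found along most of the arm, and the evenness of their spread was not tested. Consecutive ones lay a median of 205 kb and a mean of 451 kb apart between centres, the closest 19.8 kb apart. Of the 46, 33 (71.7%) were single by the 5 kb rule, against 63.5% of all 2L peaks, a difference that was not tested. They occurred in 18 of the 21 complete 1 Mb bins. The bins starting at 1000001 and at 16000001 held 5 each, and those starting at 13000001, 15000001 and 21000001 held 0. The longest stretch without one was 2027 kb between centres, from the peak ending at 14370930 to that starting at 16397320. In the 5 equal parts from distal to proximal, scores of 200 or more were found in 14 of 120, 12 of 87, 6 of 91, 9 of 68 and 5 of 113 peaks. Differences among the parts were not tested. The bin from 21000001 to 22000000 combined 26 peaks and the largest group with a highest score of only 171.64.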

How the data were processed

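The 1 peak list was used as deposited. The authors called peaks with MACS, per the file headers, and aligned reads with Bowtie to BDGP5, per the submitters' processing notes. The sources used here do not give versions, the control, the limits or the way the replicates were combined. The deposited values are start, end and a score per peak, and the score is the authors' own. The number of reads is unknown, so precision is given by counts of peaks alone.

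Peaks of 2L were compared with those of 3L, 3R and X. A span runs from the first to the last peak of an arm. Bins of 1 Mb and 100 kb start at coordinate 1, and a peak belongs to the bin of its centre. Nearness was 5 kb between centres, and a run held gaps of at most 5 kb. The 7 measures gave 21 exact tests (SciPy 1.17.1, Python 3.11.15), adjusted by Benjamini-Hochberg. Peaks are not replicates, so p-values describe this list. Those for density, close neighbours and groups are too small, because peaks that lie together were counted as independent. The tests were tried on simulated independent counts, which do not model grouped peaks. Alternatives were other score limits, distances, bins and widths, and joined peaks.

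Regions named are the 10 highest scoring, 5 widest and 3 narrowest peaks, the 5 longest gaps, the 5 largest groups, the 3 fullest and 3 emptiest 1 Mb bins and the 5 fullest 100 kb bins. Others, namely the 15 to 18 Mb window, the 20 peaks between the longest gaps and the 2 isolated peaks, were named after their values were seen. Members and measures were chosen with earlier results of these data known, the lower count of 2L among them. No genome of this build was used, so genes and sequences are not given.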

Additional observations from a re-analysis of the deposited data

How the results depend on the processing

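Of the 21 tests, 2 passed: density and empty 100 kb bins, both against X. Of 63 alternative values, 51 kept direction and side of the 0.05 threshold. The density ratio to X was 0.641 in the highest 10% of scores and no longer passed, with fewer peaks. The ratio to 3L was 0.830 and passed with complete 1 Mb bins, and the difference in close neighbours from X was -11.5 points and passed at 10 kb. The cause of these changes was not tested. The other 9 changed sign, none past the threshold. Close neighbours against 3L were -0.0427 points at 2 kb, -4.19 at 10 kb, -0.720 with peaks under 1 kb apart joined and -4.52 in the upper 50% of scores. Groups of 3 or more were 0.635 points against 3R at 2 kb, 1.25 at 10 kb and, joined, 1.14 against 3L. The share in the upper 50% of scores differed by 1.28 points from 3L and 4.56 from 3R. The direction of these small differences therefore depends on the setting. The effect of read depth is unknown, as no read numbers were used. No paired analysis was possible because both ChIP replicates share 1 peak list.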

Other observations

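The heterochromatic scaffold 2LHet, which is kept apart from 2L in the build, carried 1 peak, at 169894 to 170655, with a width of 762 bp and a score of 76.58. It entered no comparison.

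Of the 478 gaps between consecutive 2L peaks, 38 were under 1 kb and 7 under 100 bp. The closest peaks were 9 bp apart, from 239228 to 240889 and from 240899 to 242064. The next closest were 15 bp apart, from 14054106 to 14054748 (score 62.88) and from 14054764 to 14055494 (score 130.91). Gaps under 100 bp made up 1.46% of gaps on 2L, against 0.876% on 3L, 1.23% on 3R and 0.648% on X, values that rest on 7, 5, 8 and 5 gaps and were not tested.

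Single 2L peaks had a median score of 85.6, paired peaks 77.7 and peaks in groups of 3 or more 87.35. Of the single peaks 10.9% were in the highest 10% of scores of the 4 arms, against 5.93% of the paired and 10.5% of the grouped peaks, which are 33, 7 and 6 peaks. In the same order the shares were 11.0, 9.46 and 12.7% on 3L, 11.3, 7.81 and 12.2% on 3R, and 7.90, 9.80 and 11.9% on X. Paired peaks thus had the lowest share on 2L, 3L and 3R, and single peaks on X. These shares are a description, and no difference among them was tested.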
